A study of Mus musculus with 24 samples.

Results

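The libraries described here show how gene expression in mouse epiblast stem cells (the EPI stage) differed after OTX2 was depleted. They are 6 of the study's 24 polyA RNA-seq libraries, chosen by their labels as the 3 EPI libraries given dTAG13 and the 3 given DMSO, and they form 3 pairs by cell line. The lines are called 7H, 7H1 and 7H2, and 15037 of the 18205 genes in the deposited table passed the filter on low values and were tested. All 6 libraries come from BL6/129 hybrid cells that carry OTX2-dTAG-EGFP, OTX2 fused to a degradation tag and a fluorescent protein, so the DMSO controls carry the tagged protein too. Both groups grew in N2B27 medium that held 20 ng/ml of activin A, 12.5 ng/ml of FGF2 and 175 nM of a compound the labels call NVP. The dTAG13 group had the degrader for 21 h, and the DMSO group had the vehicle for the same time. dTAG13 links the tag to an E3 ubiquitin ligase, which sends the tagged protein to the proteasome, and was given at a concentration that the labels leave out. The labels do not say how the 3 lines are related, so the p-values speak for these lines only. They rest on how the difference between dTAG13 and DMSO varied across the lines, pooled over all 24 libraries. Cells without the tag that were given dTAG13 were not analysed here. The other 18 libraries, used to estimate the spread and for comparison, pair the same treatments in the same lines at the primitive streak stage (PS) and in definitive endoderm 24 h (DE1) and 48 h (DE2) from PS. Per the labels, cells left the EPI medium for a medium called CDM with 40 ng/ml of activin A and CHIR for 16 h to reach PS, and then had 100 ng/ml of activin A and LDN, so medium differs with stage. There too dTAG13 or DMSO was given for 21 h.

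OTX2 is a homeodomain transcription factor of the paired type that is present in the epiblast around implantation, in anterior visceral endoderm and later in the forebrain and midbrain. Epiblast stem cells correspond to the primed epiblast that is close to gastrulation: activin and FGF keep them pluripotent, and low levels of primitive streak, organiser and endoderm transcripts are known in such cultures. In mouse embryos OTX2 in anterior visceral endoderm is linked to secreted antagonists of WNT and NODAL signalling, among them DKK1 and CER1.

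The 6 EPI libraries had normalised totals between 24.42 and 25.31 M, which normalisation makes nearly equal. The table holds no read totals, and the spacing of low values gave an estimate of 25.36 to 27.9 M counted reads in the DMSO libraries and 17.07 to 21.16 M in the dTAG13 libraries. The dTAG13 library was the shallower one in every pair, and its part in the results was not tested. All 12 epiblast markers checked were present, and their summed level ranged from 152314 to 166923 with DMSO and from 133857 to 157168 with dTAG13. Naive markers summed to 369 to 407 with DMSO and 306 to 748 with dTAG13, and endoderm markers to 633 to 1954 and 267 to 1975. Markers of extraembryonic cells summed to 27.6 to 122 and 32.8 to 118, with the visceral endoderm gene Ttr at 0 in every EPI library. Fibroblast markers summed to 5771 to 9963 with DMSO and 3793 to 8547 with dTAG13, and all 7 were detected. Whether feeder cells were used is not given in the labels, and the part of such cells in the results was not tested.

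Depletion changed few genes in epiblast stem cells, with more falls than rises when all 24 libraries share an estimate of spread. At an adjusted p under 0.05, 63 genes fell (0.419% of those tested) and 23 rose (0.153%), 86 in all (0.572%). With the EPI libraries fitted alone the balance turned, to 17 falls and 23 rises. The 63 falls included endoderm and organiser transcription factors (Sox17, Gata6, Gsc, Lhx1), secreted or membrane WNT and NODAL antagonists (Dkk1, Sfrp5, Shisa2, Cer1) and the NODAL co-receptor gene Cfc1. The 23 rises included Otx2 itself, the mesoderm and endothelial receptor gene Kdr and the NOTCH ligand gene Dll1. The falls were larger than the rises: 29 genes fell at least 2-fold and 2 rose at least 2-fold, and the median log2 fold change was -0.95 over the falls and 0.65 over the rises, against -0.01 over all tested genes. Every adjusted p given here is from limma on log2(normalised count + 1) with Benjamini-Hochberg adjustment over all tested genes, two-sided, with the cell line as a block. Each fold change is dTAG13 against DMSO on that log2 scale, which understates changes of low genes, and each ± beside it is a standard error. All 86 genes moved one way in all 3 lines, which 19.3% (lower) and 16.5% (higher) of all tested genes also did. For 43 of the falls and 10 of the rises the DMSO and dTAG13 values did not overlap at all, as for 4.54% (lower) and 3.7% (higher) of all tested genes.

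**Figure D1:**
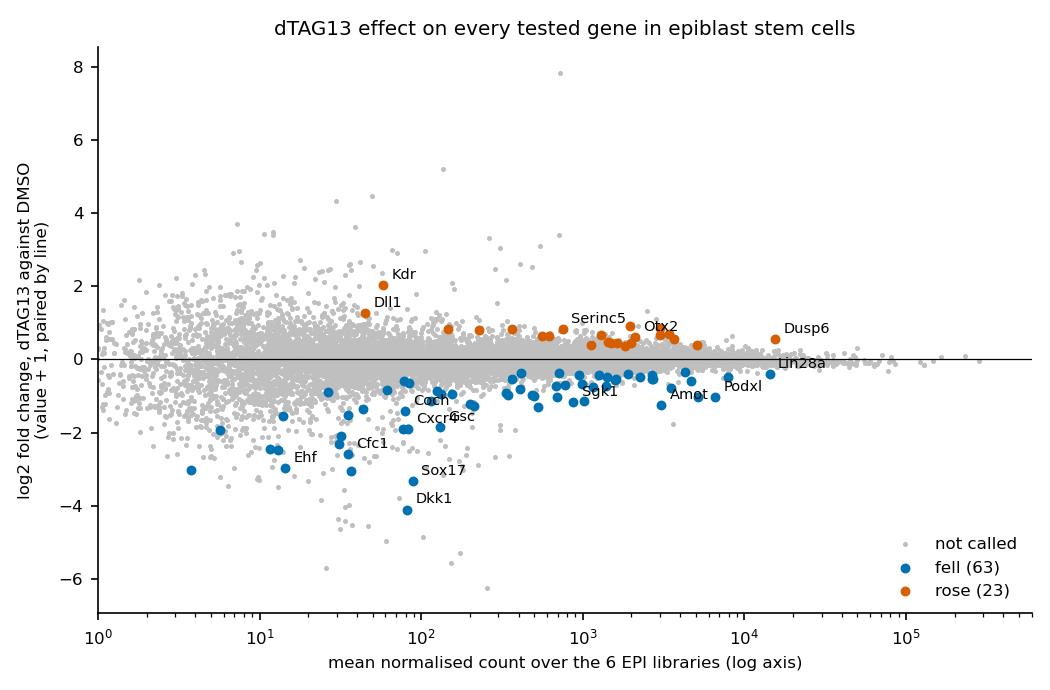
Each point is 1 of the 15037 tested genes, with its mean normalised count over the 6 EPI libraries on the x axis (log scale) and its log2 fold change, dTAG13 against DMSO, on the y axis. The 63 genes that fell (blue) reach a log2 fold change of -4.11 at Dkk1, while the 23 that rose (orange) reach 2.03 at Kdr. Uncalled genes (grey) spread widely at low counts.

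The count depends on using the pairing and on the shared estimate of spread. Without the replicate block 13 genes were called (0.0865%), all of them falls and all among the 63, including Dkk1, Sox17, Ism2, Ehf, Cxcr4, Gata6, Gsc, Amot, Shisa2, Plk5, Fzd5 and Chst15. With the EPI libraries fitted alone, 16 of the 86 calls were kept, including Amot, Stxbp6, Podxl, Trh, Nrcam, Mycn and Slc16a3 among the falls and F2rl1, Dusp6, Otx2, Baz1a, Apela, Serinc5, Sptb and Kirrel among the rises. With line as a random effect 35 of the 63 falls and 5 of the 23 rises kept their call, the rises being H2afy, F2rl1, Serinc5, Kirrel and Dll1. The falls that lost it there were Sfrp5, Nxph4, Stxbp6, Trh, Nrcam, Cer1, Car4, Hsd11b2, Naaa, Mogat2, Dysf, Mycl, Irx3, Foxq1, Fgf5, Cd40, Emc8, Stx3, Impdh1, Slc16a3, Rps6ka2, Cotl1, Sh3bp4, Lin28a, Gpc4, H2afy2, Bcar3 and Rbpms. Among the EPI libraries alone Sox17 had an adjusted p of 0.051 and Gsc of 0.0529. Cxcr4 (0.0631), Shisa2 (0.0652), Dkk1 (0.0703), Cfc1 (0.0703) and Fzd5 (0.0764) were not called there either. Nor were Cer1 (0.102), Gata6 (0.115), Lhx1 (0.182), Isl1 (0.191) and Sfrp5 (0.232). To leave out a line, here and below, its EPI pair was dropped while its libraries at PS, DE1 and DE2 stayed in the fit. Whichever line was left out, 16 falls and 3 rises kept their call, the falls including Sox17, Ehf, Cfc1, Cxcr4, Gata6, Gsc, Coch, Amot, Shisa2, Sgk1, Plk5, Podxl, Cer1, Irs4 and Mycl and the rises being F2rl1, Otx2 and Serinc5. No called gene changed sign in any alternative. Since all 86 moved one way in all 3 lines, only a change of scaling could have turned a sign.

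The Otx2 transcript, the target of the degrader at the protein level, rose. Otx2 (chr14:48657677-48673819, minus strand) stood at 1693, 1476 and 1817 with DMSO and 2352, 2302 and 2949 with dTAG13. All 3 dTAG13 libraries lay above all 3 DMSO libraries, at 152% of the DMSO mean (log2 fold change 0.60 ± 0.08, adjusted p = 0.00222). This transcript does not measure the tagged protein, so the libraries hold no check of the depletion itself. The annotation places Otx2os1 on the opposite strand of Otx2. The strand setting of the counting is not given, so reads of the 2 cannot be told apart. The EPI rise differed from the effect at PS, where Otx2 fell (log2 fold change -0.34 ± 0.08, adjusted p = 0.0377; difference 0.94 ± 0.11, adjusted p = 0.00359), while at DE1 and DE2 it rose (log2 fold change 0.41 ± 0.08, adjusted p = 0.00256 and log2 fold change 0.30 ± 0.08, adjusted p = 0.0104). The rise was not called without the replicate block (adjusted p = 0.73), nor with line as a random effect (adjusted p = 0.0586).

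Of the transcription factors of endoderm and the organiser, Gsc, Sox17 and Gata6 were among the falls with the smallest adjusted p. Lhx1 was called near the threshold. Sox17, a factor that specifies definitive endoderm, stood at 122, 165 and 197 with DMSO and 23.7, 11.5 and 12 with dTAG13. Each line lost most of its Sox17 transcript and the groups were far apart, with 9.75% of the DMSO mean left (log2 fold change -3.32 ± 0.30, adjusted p = 0.000315, chr1:4490931-4497354, minus strand). Gata6, a zinc finger factor of endoderm, stood at 94.4, 121 and 149.7 with DMSO and 30.5, 48.1 and 20.7 with dTAG13. The dTAG13 values were all below the lowest DMSO value, and the fall was called (log2 fold change -1.90 ± 0.20, adjusted p = 0.000875). Gsc (goosecoid), a paired-type homeobox gene of the organiser, stood at 152, 215 and 247 with DMSO and 37.4, 79.5 and 55.7 with dTAG13 (chr12:104471209-104473330, minus strand). Again the groups did not overlap (log2 fold change -1.85 ± 0.15, adjusted p = 5.76e-05). The LIM homeobox gene Lhx1, known from the organiser and anterior mesendoderm, stood at 560.1, 753 and 839.7 with DMSO and 148, 591 and 275 with dTAG13. Its decrease was uneven: 7H and 7H2 dropped steeply while 7H1 with dTAG13 stayed within the DMSO range (log2 fold change -1.29 ± 0.24, adjusted p = 0.0455, chr11:84518284-84525535, minus strand). Isl1, a LIM homeobox gene of cardiac and neural progenitors, was at 11.8, 4.52 and 6.41 with DMSO and is listed at 0 in all 3 dTAG13 libraries, so no fold is given, and it passed the filter through later stages and was not tested when the filter used the EPI libraries alone (adjusted p = 0.0339; chr13:116298281-116309689, minus strand). Lhx1 lost its call without 7H (adjusted p = 0.243) and without 7H2 (0.323), and Isl1 did so without 7H (adjusted p = 0.258), without 7H1 (0.102) and without 7H2 (0.192).

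Surface and secreted products known from endoderm fell alongside. Cxcr4, the chemokine receptor that marks definitive endoderm, stood at 137, 103 and 154 with DMSO and 34.3, 33.1 and 33.9 with dTAG13. The 3 dTAG13 values were almost equal and all were below the DMSO values (log2 fold change -1.91 ± 0.20, adjusted p = 0.000622, chr1:128588199-128592293, minus strand). Cer1, a secreted antagonist of NODAL, BMP and WNT ligands, stood at 667, 534 and 791 with DMSO and 392, 316 and 274 with dTAG13, without overlap (log2 fold change -1.02 ± 0.15, adjusted p = 0.00649, chr4:82881751-82885148, minus strand). Trh, the gene of thyrotropin-releasing hormone, stood at 3459, 8946 and 8222 with DMSO and 1651, 4856 and 3783 with dTAG13. It was lower with dTAG13 in each line, and the highest dTAG13 value, in 7H1, was above the lowest DMSO value, in 7H (log2 fold change -1.02 ± 0.17, adjusted p = 0.0206, chr6:92242061-92244650, minus strand). Trh lost its call without 7H (adjusted p = 0.146), without 7H1 (0.0737) and without 7H2 (0.182). Of the 22 definitive endoderm genes tested, these 3 fell with Sox17, Gata6 and Gsc. The list's median log2 fold change was -0.60, against -0.01 over all tested genes, and 12 members were lower in all 3 lines while 0 were higher. Of all tested genes 0.572% were called, and 19.3% were lower and 16.5% higher in all 3 lines. An unadjusted p under 0.05 by limma was found for 1237 of 15037. These shares are the background for the counts of every list below. The endoderm list, like the others below, was chosen with earlier results of these data known. Members below the threshold included Eomes, a T-box factor upstream of endoderm, at 989, 3241 and 1469 with DMSO and 556, 2648 and 755 with dTAG13 (log2 fold change -0.69 ± 0.14, adjusted p = 0.0518), and Gata4 at 80.6, 28.2 and 88.4 with DMSO and 22.9, 27.7 and 31.4 with dTAG13 (log2 fold change -1.09 ± 0.27, adjusted p = 0.126). Foxa2, an endoderm pioneer factor, differed far more between lines than between treatments, at 189, 1534 and 422 with DMSO and 154, 1845 and 486 with dTAG13. These are bulk libraries, so fewer cells with a transcript and less of it per cell cannot be told apart.

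**Figure D2:**
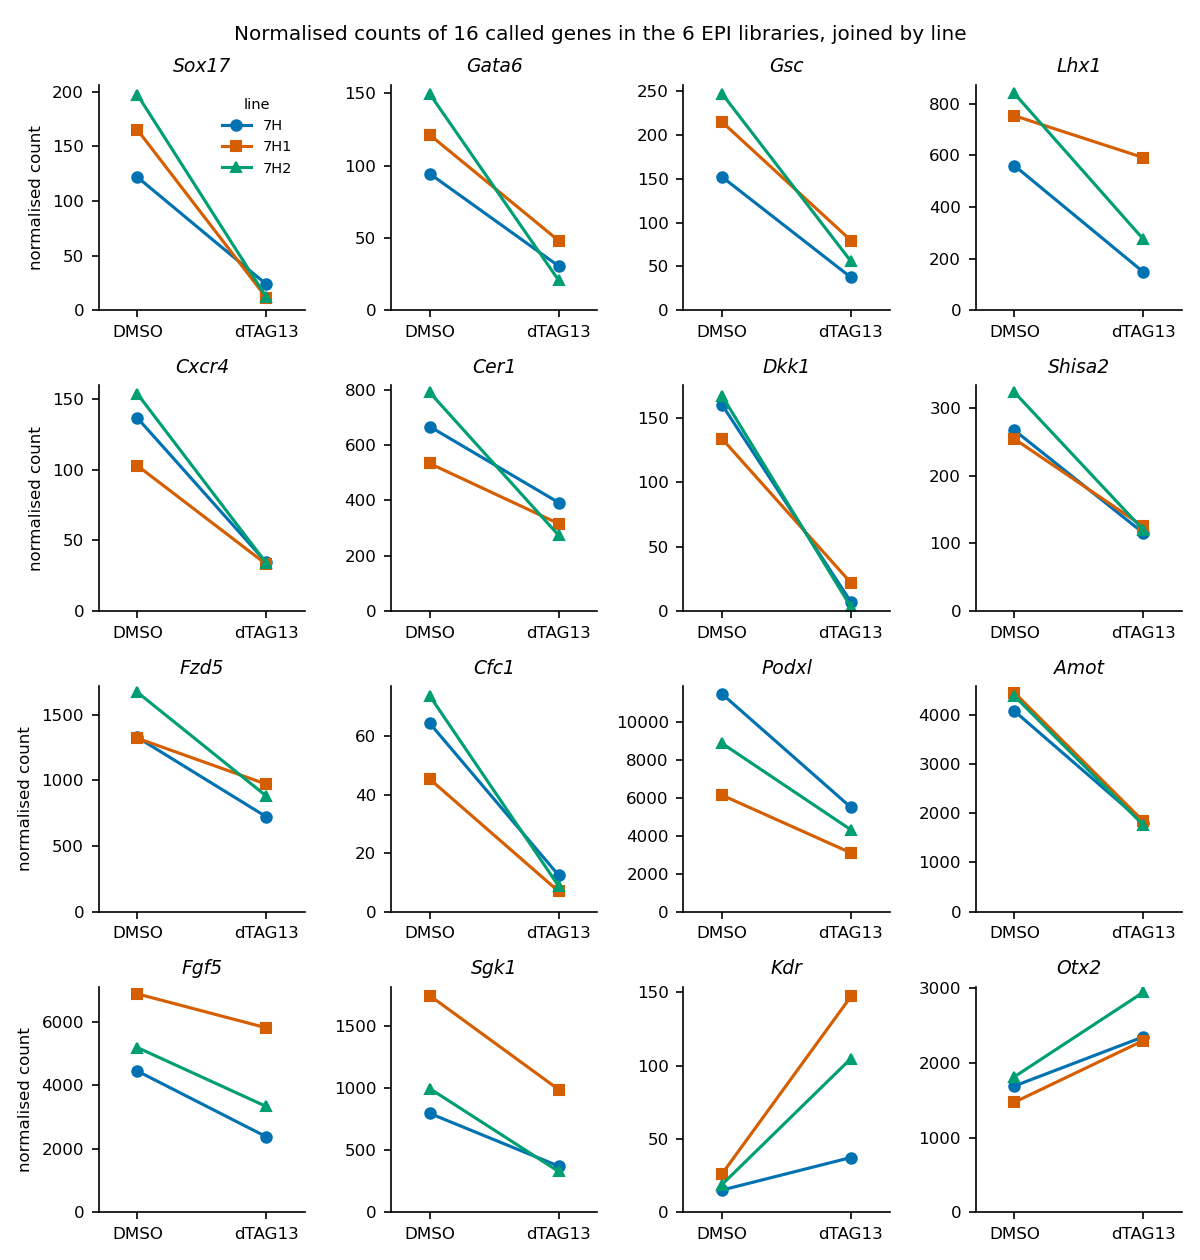
Normalised counts of 16 called genes in the 3 DMSO and 3 dTAG13 EPI libraries, on linear axes that start at 0, with a line joining the pair of each cell line. Sox17, Cxcr4, Dkk1 and Amot drop in all 3 lines without overlap, Lhx1 shows the shallow drop in 7H1, and Kdr and Otx2 go up in each line.

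The largest fall of all was that of an antagonist of WNT signalling, and other antagonists fell with it. Dkk1, a secreted inhibitor that binds the LRP co-receptors, stood at 160.1, 134 and 167 with DMSO and 6.94, 21.8 and 2.95 with dTAG13 (chr19:30545863-30549665, minus strand). The DMSO values were close together and every dTAG13 value was far below them, with 6.87% of the DMSO mean left (log2 fold change -4.11 ± 0.46, adjusted p = 0.00369). The size of the change varied more between lines for Dkk1 than for any other called gene, from -2.56 in 7H1 to -5.41 in 7H2 on the log2 scale. The dTAG13 value of 2.95 in 7H2 corresponds to few reads, so that range is imprecise. Shisa2, a membrane protein of the endoplasmic reticulum that holds back maturation of Frizzled and FGF receptors, stood at 267, 254 and 323 with DMSO and 115, 125 and 119.7 with dTAG13. The dTAG13 values lay within a narrow band below all DMSO values (log2 fold change -1.22 ± 0.12, adjusted p = 0.000304, chr14:59625308-59631660, plus strand). Sfrp5, a secreted Frizzled-related inhibitor, was low in all libraries at 12.4, 15.3 and 30.7 with DMSO and 0, 6.89 and 4.42 with dTAG13, again without overlap (log2 fold change -2.45 ± 0.48, adjusted p = 0.0339, chr19:42197971-42202252, minus strand). Fzd5, a Frizzled receptor of the early endoderm and eye field, stood at 1328, 1322 and 1672 with DMSO and 723, 971 and 881 with dTAG13 (log2 fold change -0.75 ± 0.11, adjusted p = 0.00649, chr1:64730558-64737751, minus strand). Every dTAG13 value of Fzd5 was under every DMSO value. Dkk1 lost its call without 7H (adjusted p = 0.0544), and Sfrp5 did so without 7H (adjusted p = 0.287) and without 7H2 (0.214). Fzd5 was no longer called without 7H (adjusted p = 0.0767) and without 7H2 (0.106). Counting Cer1, 4 of 22 tested WNT antagonists fell, against 0.419% of all tested genes, and the median of the list was -0.13.

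Most genes in other parts of the WNT pathway were not called. Of 31 WNT ligand and receptor genes tested, Fzd5 fell and Ror1 rose, with a median of -0.00. In that list 7 members were lower and 10 higher in all 3 lines. Ror1, a receptor tyrosine kinase for WNT5A, stood at 124, 269 and 111 with DMSO and 189, 451 and 231 with dTAG13 (log2 fold change 0.80 ± 0.14, adjusted p = 0.0209, chr4:100095791-100444765, plus strand). It was higher in each line, though the groups overlapped since 7H1 started high. Vangl1, a core gene of planar cell polarity, stood at 1977, 1313 and 1736 with DMSO and 2735, 1669 and 2563 with dTAG13 (log2 fold change 0.46 ± 0.08, adjusted p = 0.0137), and Gpc4, a heparan sulfate proteoglycan at the cell surface, at 2383, 2030.4 and 2075 with DMSO and 1762, 1572 and 1598 with dTAG13 (log2 fold change -0.39 ± 0.08, adjusted p = 0.034). Vangl1 and Gpc4 are named although the naming rule for genes did not pick them, after their values were seen. Among 19 WNT target and feedback genes the sole call was Dkk1. The median of these targets was 0, with 5 lower and 5 higher in all 3 lines, so they did not move one way. T (brachyury), a WNT target of the primitive streak, was at 1121, 2475 and 1805 with DMSO and 2450.5, 5427 and 3733 with dTAG13, higher in each line but not called (log2 fold change 1.10 ± 0.29, adjusted p = 0.209). Wnt8a at 11.4, 520.4 and 56.4 with DMSO and 55.5, 968 and 162 with dTAG13 (log2 fold change 1.53 ± 0.51, adjusted p = 0.342) and Lgr5 at 207, 393 and 323 with DMSO and 255, 683 and 479 with dTAG13 (log2 fold change 0.56 ± 0.13, adjusted p = 0.105) were likewise higher in every line and not called. Ror1 lost its call without 7H (adjusted p = 0.0605), without 7H1 (0.0955) and without 7H2 (0.214), and Vangl1 did so without 7H (adjusted p = 0.113) and without 7H2 (0.185). Gpc4 was no longer called without 7H (adjusted p = 0.248), without 7H1 (0.159) and without 7H2 (0.214).

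Within the NODAL pathway the called genes included a co-receptor and an antagonist. Cfc1, which encodes the EGF-CFC co-receptor CRYPTIC, stood at 64.5, 45.4 and 73.9 with DMSO and 12.4, 6.93 and 8.76 with dTAG13. The dTAG13 values were all far below the DMSO values, at 15.3% of the mean (log2 fold change -2.59 ± 0.32, adjusted p = 0.00166, chr1:34535648-34544313, plus strand). The gene overlaps Prss40 on the opposite strand, and since no source used here gives the strand setting of the counting, their reads cannot be told apart. Of 23 tested NODAL genes 3 fell, Cfc1 and Cer1 among them (median -0.10). Lefty1, a feedback antagonist of NODAL, was at 690.0, 2034 and 1138 with DMSO and 653, 1724 and 774 with dTAG13 and was not called (log2 fold change -0.29 ± 0.08, adjusted p = 0.15). Of 25 tested BMP pathway genes limma called 0, with 5 at an unadjusted p under 0.05 and a median of 0.10. Over all tested genes 1237 of 15037 had such an unadjusted p. The BMP antagonist gene Chrd, at 387, 1689 and 934 with DMSO and 557, 3271 and 1435 with dTAG13 (log2 fold change 0.70 ± 0.19, adjusted p = 0.165), and the BMP target Id3, at 295, 709 and 454 with DMSO and 349, 1020.2 and 646 with dTAG13 (log2 fold change 0.43 ± 0.12, adjusted p = 0.206), were both higher in each line without passing the threshold.

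One angiomotin stood out by the evenness of its drop. Amot encodes a scaffold at tight junctions that binds YAP, the effector of the Hippo pathway, and stood at 4079, 4453 and 4385 with DMSO and 1810.2, 1838 and 1761 with dTAG13 (chrX:145446425-145505181, minus strand). The 3 lines agreed closely within each group, the groups were wide apart and the adjusted p was the smallest of all genes called in EPI (log2 fold change -1.25 ± 0.08, adjusted p = 4.98e-06). It was called in each of the 15 alternatives, with adjusted p from 2.93e-08 to 0.00363. Of 23 Hippo pathway and angiomotin genes tested, Amot alone was called by limma. Its paralogue Amotl1 was at 2425, 1759.8 and 2045 with DMSO and 3013, 2015 and 2668 with dTAG13 (log2 fold change 0.30 ± 0.10, adjusted p = 0.355), higher with dTAG13 in each line but below the threshold.

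In the FGF pathway one ligand fell and one ERK phosphatase rose. Fgf5, a ligand that marks the primed epiblast, stood at 4452, 6881 and 5192 with DMSO and 2382, 5813 and 3336 with dTAG13. Each line dropped, least in 7H1, and the groups overlapped because the lines began at different levels (log2 fold change -0.59 ± 0.11, adjusted p = 0.0271, chr5:98254184-98277030, plus strand). Dusp6, a phosphatase induced by ERK signalling that dephosphorylates ERK, stood at 16820.0, 8198 and 12978 with DMSO and 21788, 12643 and 20823 with dTAG13. It rose in each line with overlapping groups (log2 fold change 0.56 ± 0.09, adjusted p = 0.00953, chr10:99263231-99267489, plus strand). Dusp4, a related phosphatase, was at 2303, 1638 and 2419.5 with DMSO and 2923, 2585 and 3231 with dTAG13, without overlap and just outside the threshold (log2 fold change 0.47 ± 0.10, adjusted p = 0.051). In the list of 27 tested FGF and ERK feedback genes 14 were higher in all 3 lines and 5 lower, 1 fell and 1 rose, and the median was 0.12. Of all tested genes 16.5% were higher and 19.3% lower in all 3 lines, and 0.572% were called. Fgf5 lost its call without 7H (adjusted p = 0.258) and without 7H2 (0.205), and Dusp6 did so without 7H1 (adjusted p = 0.0893) and without 7H2 (0.139).

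Most primed pluripotency genes were not called. Of 32 primed epiblast genes tested, Fgf5 and Lin28a fell and Otx2 rose, with a median log2 fold change of -0.11. Over all tested genes 0.572% were called. In the list 15 members were lower and 5 higher in all 3 lines, against 19.3% and 16.5% of all tested genes. At an unadjusted p under 0.05 by limma stood 11 members, 8 of them lower, against 1237 of 15037 tested genes. Lin28a, an RNA-binding protein that blocks let-7 maturation, stood at 14045, 18688 and 15842 with DMSO and 9916, 15237 and 12031 with dTAG13 (log2 fold change -0.40 ± 0.06, adjusted p = 0.00649, chr4:134003330-134018841, minus strand). Pou5f1, the gene of OCT4, was between 30256 and 35801 in all 6 libraries. Mycn, a MYC family gene of pluripotent cells, stood at 3105, 5278 and 4814 with DMSO and 1612, 3519 and 2682 with dTAG13, lower in each line with overlapping groups (log2 fold change -0.79 ± 0.12, adjusted p = 0.00612, chr12:12936093-12941914, minus strand). Mycl, a further MYC gene named after its values were seen, stood at 841, 1589 and 1184 with DMSO and 457, 1099 and 784 with dTAG13 (log2 fold change -0.67 ± 0.09, adjusted p = 0.00238). Of 21 naive pluripotency genes tested one rose, Klf5, a Krüppel-like factor of naive cells and trophoblast, at 1468, 653 and 934 with DMSO and 2091, 1155 and 1482 with dTAG13 (log2 fold change 0.67 ± 0.12, adjusted p = 0.022, chr14:99298691-99315036, plus strand). Of 15 formative epiblast genes Fgf5 and Otx2 were the ones called, and of 18 DNA methylation genes limma called 0, with 2 at an unadjusted p under 0.05. Lin28a lost its call without 7H (adjusted p = 0.0951) and without 7H2 (0.084), and Mycn did so without 7H (adjusted p = 0.075) and without 7H2 (0.0789). Klf5 was no longer called without 7H (adjusted p = 0.0753), without 7H1 (0.174) and without 7H2 (0.168).

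The largest rises were those of Kdr and Dll1, both known from mesoderm. Kdr, the VEGF receptor that marks lateral mesoderm and endothelial precursors, stood at 15.3, 26.3 and 19 with DMSO and 37.4, 147 and 105 with dTAG13. All dTAG13 values exceeded all DMSO values, with the smallest change in 7H, and the mean reached 479% of DMSO (log2 fold change 2.03 ± 0.31, adjusted p = 0.00766, chr5:75932827-75978458, minus strand). Dll1, a NOTCH ligand of paraxial mesoderm, stood at 36.5, 29.2 and 15.3 with DMSO and 54.4, 66.6 and 67.3 with dTAG13, without overlap (log2 fold change 1.27 ± 0.23, adjusted p = 0.0282, chr17:15367354-15376872, minus strand). Flt1, a VEGF receptor that acts as a decoy, went the other way, at 1720.0, 1839.7 and 2124 with DMSO and 1392, 1408 and 1109 with dTAG13 (log2 fold change -0.54 ± 0.11, adjusted p = 0.0423); it is named after its values were seen. Apela, a peptide ligand of the apelin receptor that is made by pluripotent cells, stood at 3033, 2164 and 2518 with DMSO and 5172, 3463 and 3982 with dTAG13, without overlap (log2 fold change 0.70 ± 0.14, adjusted p = 0.0339, chr8:65028417-65037336, minus strand). Of 26 mesoderm genes tested Kdr and Dll1 rose and Isl1 fell, and the median was -0.05. In that list 5 members were lower and 6 higher in all 3 lines. At an unadjusted p under 0.05 by limma 3 were lower and 2 higher. Pcdh8, a gene of nascent mesoderm outside the list, fell (log2 fold change -1.51). Of the defining mesoderm markers Mesp1 reached at most 2.31 normalised counts in any EPI library, Msgn1 5.78, Meox1 13.3 and Tbx6 18.9. Foxc2, a forkhead gene of mesoderm, stood at 29.6, 14.5 and 12.9 with DMSO and 43.0, 29.8 and 14.8 with dTAG13, higher in each line like Kdr. Meox1 (13.3, 12.6 and 1.99 with DMSO, 6.94, 5.74 and 2.95 with dTAG13) moved in different directions between lines. So did Tbx6 (14.7, 12.3 and 10.6 with DMSO, 18.9, 4.47 and 14.3 with dTAG13). The 6 mesoderm markers summed to 46.4 to 73.8 with DMSO and 108 to 191 with dTAG13. Kdr, itself a called gene, supplied 37.4, 147 and 105 of the dTAG13 sums in 7H, 7H1 and 7H2. The part of mesoderm cells in these rises was not tested. Kdr lost its call without 7H1 (adjusted p = 0.0846) and without 7H2 (0.109), and Dll1 did so without 7H1 (adjusted p = 0.121) and without 7H2 (0.214). Flt1 was no longer called without 7H (adjusted p = 0.0617), without 7H1 (0.0955) and without 7H2 (0.41), and Apela did so without 7H (adjusted p = 0.25), without 7H1 (0.168) and without 7H2 (0.213).

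Of 30 tested cell adhesion and EMT genes Pcdh8 fell and Cldn4 rose, with a median of -0.07. Podxl, a sialomucin of the apical surface in the epiblast, stood at 11474, 6139 and 8871 with DMSO and 5494, 3097 and 4314 with dTAG13. Each line lost about the same share, leaving 48.7% of the DMSO mean, and the groups did not overlap (log2 fold change -1.03 ± 0.09, adjusted p = 0.000136, chr6:31519488-31563981, minus strand). Nrcam, a neuronal adhesion molecule, stood at 649, 1162 and 963 with DMSO and 330.3, 569 and 460.1 with dTAG13, with near-equal drops in the 3 lines (log2 fold change -1.02 ± 0.14, adjusted p = 0.00412, chr12:44328885-44601964, plus strand). Pcdh8, a protocadherin of nascent mesoderm, stood at 40.8, 89.4 and 27.8 with DMSO and 10.2, 29.2 and 12.9 with dTAG13 (log2 fold change -1.51 ± 0.21, adjusted p = 0.00447, chr14:79766775-79771312, minus strand); its groups overlapped. Ptpru, a receptor tyrosine phosphatase that acts at cell contacts, stood at 544, 269 and 569 with DMSO and 203, 193 and 286 with dTAG13 (log2 fold change -0.96 ± 0.19, adjusted p = 0.0388). Cldn4, a tight junction claudin, rose from very different starting levels, at 847, 103 and 304 with DMSO and 1457, 142 and 490.3 with dTAG13 (log2 fold change 0.65 ± 0.12, adjusted p = 0.0278, chr5:134945119-134946934, minus strand). Kirrel, a junctional immunoglobulin protein of the slit diaphragm, rose too, at 1917, 939 and 1208 with DMSO and 3437, 1532 and 2788 with dTAG13 (log2 fold change 0.92 ± 0.13, adjusted p = 0.00649, chr3:87078593-87174747, minus strand). Nrcam lost its call without 7H2 (adjusted p = 0.0634), and Pcdh8 did so without 7H (adjusted p = 0.0544). Ptpru was no longer called without 7H (adjusted p = 0.334) and without 7H2 (0.24), and Cldn4 did so without 7H (adjusted p = 0.242), without 7H1 (0.0584) and without 7H2 (0.205). Kirrel lost its call without 7H2 (adjusted p = 0.0997).

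Of 21 tested genes of the neural plate and anterior neural tissue 2 fell, with a median of -0.30. Sox21, a SOXB factor of neural progenitors, stood at 55.3, 67.0 and 64.9 with DMSO and 16.7, 32.0 and 25.1 with dTAG13, without overlap (log2 fold change -1.35 ± 0.22, adjusted p = 0.0137, chr14:118233232-118237030, minus strand). Irx3, an Iroquois homeobox gene, stood at 103, 93.7 and 111 with DMSO and 55.3, 58.2 and 86.9 with dTAG13 (log2 fold change -0.64 ± 0.12, adjusted p = 0.0257, chr8:91798525-91802067, minus strand). The eye field gene Rax was at 5.72, 1.8 and 10.9 with DMSO and is listed at 0 in all 3 dTAG13 libraries, and it was not called (adjusted p = 0.0636). Of the 38 tested axon guidance and Eph-ephrin genes limma called 0, with 6 at an unadjusted p under 0.05. Epha1 was at 5945, 6565 and 7082 with DMSO and 9039, 9674 and 11769 with dTAG13, without overlap and just outside the threshold (log2 fold change 0.63 ± 0.13, adjusted p = 0.0508), and Robo1 at 625, 876 and 701 with DMSO and 445, 499.5 and 495 with dTAG13 (log2 fold change -0.60 ± 0.23, adjusted p = 0.46). Sox21 lost its call without 7H (adjusted p = 0.135) and without 7H2 (0.106), and Irx3 did so without 7H (adjusted p = 0.227) and without 7H1 (0.134).

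Sgk1, Plk5, Irs4, Coch and Car4 also fell. Sgk1, a serum- and glucocorticoid-induced kinase, stood at 799, 1749 and 999 with DMSO and 373, 991 and 330.1 with dTAG13. Every line dropped, and the groups overlapped because 7H1 began high (log2 fold change -1.17 ± 0.12, adjusted p = 0.000304, chr10:21882184-21999903, plus strand). Plk5, a polo-like kinase, stood at 123, 164 and 187 with DMSO and 55.5, 85.3 and 72.9 with dTAG13, without overlap (log2 fold change -1.14 ± 0.14, adjusted p = 0.00162, chr10:80356459-80365489, plus strand). Irs4, an adaptor of insulin receptor signalling, stood at 149.9, 163 and 198 with DMSO and 51.4, 109 and 121 with dTAG13, without overlap (log2 fold change -0.94 ± 0.14, adjusted p = 0.00764, chrX:141710998-141725263, minus strand). Coch, which encodes the secreted matrix protein cochlin, stood at 114, 117 and 116 with DMSO and 48.7, 47.2 and 34.1 with dTAG13: the DMSO values were nearly equal and all dTAG13 values were well below (log2 fold change -1.42 ± 0.15, adjusted p = 0.000315, chr12:51593341-51605771, plus strand). Car4, a membrane-bound carbonic anhydrase, stood at 430.3, 294 and 607 with DMSO and 212, 171 and 305 with dTAG13 (log2 fold change -0.93 ± 0.14, adjusted p = 0.00764, chr11:84957786-84966044, plus strand). Its groups overlapped. Car4 lost its call without 7H (adjusted p = 0.0767) and without 7H2 (0.0933).

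Stxbp6, a regulator of SNARE complexes, stood at 1366, 1205 and 1652 with DMSO and 597, 627 and 677 with dTAG13 (log2 fold change -1.14 ± 0.20, adjusted p = 0.022, chr12:44852484-45074709, minus strand). Rnf165, a RING-type ubiquitin ligase, stood at 323, 295 and 273 with DMSO and 91.3, 112 and 176 with dTAG13 (log2 fold change -1.28 ± 0.26, adjusted p = 0.0427). Sec14l2, a lipid-binding protein that binds tocopherol, stood at 264, 172 and 181 with DMSO and 99.2, 109.5 and 104 with dTAG13 (log2 fold change -0.95 ± 0.19, adjusted p = 0.0362). None of these 3 genes overlapped between the groups, and the span of Sec14l2 holds Gm11955 on the opposite strand. Naaa, an acid amidase of the lysosome, stood at 130.4, 198 and 155 with DMSO and 79.7, 109 and 74.1 with dTAG13 (log2 fold change -0.87 ± 0.16, adjusted p = 0.0296). Mogat2, an acyltransferase of triglyceride synthesis, stood at 61.7, 104 and 66.1 with DMSO and 24.9, 74.5 and 39.6 with dTAG13 (log2 fold change -0.83 ± 0.15, adjusted p = 0.0206), and Dysf, the membrane repair protein dysferlin, at 503, 549 and 510.0 with DMSO and 354, 306 and 235 with dTAG13 (log2 fold change -0.82 ± 0.16, adjusted p = 0.0296). Mogat2 overlapped between the groups, while Naaa and Dysf did not. Stxbp6 lost its call without 7H (adjusted p = 0.167), without 7H1 (0.0837) and without 7H2 (0.214), and Rnf165 did so without 7H (adjusted p = 0.334) and without 7H1 (0.242). Sec14l2 was no longer called without 7H (adjusted p = 0.318), without 7H1 (0.073) and without 7H2 (0.157), and Naaa did so without 7H (adjusted p = 0.0976), without 7H1 (0.14) and without 7H2 (0.24). Mogat2 lost its call without 7H (adjusted p = 0.164) and without 7H2 (0.102), and Dysf did so without 7H (adjusted p = 0.0583), without 7H1 (0.168) and without 7H2 (0.319).

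Several called genes had low values in some or all libraries. These genes, chosen after their values were seen apart from Psd4 and Fam46c, are given here for their levels. Ism2, a secreted protein, stood at 38.7, 110.1 and 49.0 with DMSO and 8.39, 10.6 and 2.55 with dTAG13 (log2 fold change -3.05 ± 0.47, adjusted p = 0.00764, chr12:87278638-87299705, minus strand). Ehf, an ETS factor of epithelia, stood at 10.3, 31.5 and 33.9 with DMSO and 0, 1.68 and 8.93 with dTAG13 (log2 fold change -2.97 ± 0.34, adjusted p = 0.000664, chr2:103263433-103303278, minus strand). Tnnt1, a troponin of slow skeletal muscle, stood at 105, 15.5 and 36.8 with DMSO and 19.7, 2.20 and 6.91 with dTAG13 (log2 fold change -2.32 ± 0.35, adjusted p = 0.00649, chr7:4504570-4516382, minus strand). In Ism2 and Ehf the groups did not overlap, whereas Tnnt1 overlapped because 7H stood much higher than the other two lines. Psd4, an exchange factor for the GTPase ARF6, stood at 21.8, 8.92 and 38.6 with DMSO and 1.42, 3.52 and 3.76 with dTAG13 (log2 fold change -2.47 ± 0.48, adjusted p = 0.0339), and Fam46c, a poly(A) polymerase, at 49.9, 46.6 and 55.4 with DMSO and 4.11, 13.5 and 21.9 with dTAG13 (log2 fold change -2.11 ± 0.42, adjusted p = 0.0388). Optc, the matrix protein opticin, stood at 7.16, 8.04 and 12.4 with DMSO and 0, 2.03 and 4.72 with dTAG13 (log2 fold change -1.94 ± 0.36, adjusted p = 0.0291), and Nxph4, a neurexophilin, at 13.3, 22.5 and 24.7 with DMSO and 1.39, 11.5 and 10.3 with dTAG13 (log2 fold change -1.56 ± 0.31, adjusted p = 0.0357). Psd4 and Optc were not tested when the filter used the EPI libraries alone. The lowest of these values correspond to few reads, at about 0.892 to 1.456 normalised counts per read, and the shallower dTAG13 libraries set a coarser step. Ism2 lost its call without 7H1 (adjusted p = 0.0688) and without 7H2 (0.109), and Tnnt1 did so without 7H (adjusted p = 0.0602) and without 7H2 (0.0597). Psd4 was no longer called without 7H (adjusted p = 0.27) and without 7H2 (0.293), and Fam46c did so without 7H (adjusted p = 0.325), without 7H1 (0.121) and without 7H2 (0.0908). Optc lost its call without 7H (adjusted p = 0.234), without 7H1 (0.0737) and without 7H2 (0.0529), and Nxph4 did so without 7H (adjusted p = 0.262) and without 7H2 (0.114).

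Among the remaining rises, F2rl1 and Serinc5 kept their call whichever line was left out. F2rl1, the protease-activated receptor PAR2, stood at 3417, 2371 and 3145 with DMSO and 4777, 3719.7 and 4549.6 with dTAG13 (log2 fold change 0.56 ± 0.07, adjusted p = 0.0022, chr13:95511732-95525227, minus strand). Serinc5, a multipass membrane protein that restricts retroviral infectivity, stood at 664, 407 and 548 with DMSO and 1222, 666 and 1009.5 with dTAG13 (log2 fold change 0.82 ± 0.09, adjusted p = 0.000664, chr13:92611091-92711947, plus strand). Both genes were higher in every dTAG13 library than in any DMSO library. Sptb, the erythroid beta-spectrin, stood at 2378, 1624 and 2497 with DMSO and 3763, 3204 and 4614 with dTAG13 (log2 fold change 0.84 ± 0.14, adjusted p = 0.0122, chr12:76580488-76710547, minus strand), Baz1a, a subunit of ISWI chromatin remodellers, at 2497, 2322 and 2149 with DMSO and 4273, 3421 and 3323 with dTAG13 (log2 fold change 0.65 ± 0.11, adjusted p = 0.0182), and Cnr1, the cannabinoid receptor, at 65.0, 129.7 and 121 with DMSO and 132, 260.3 and 171 with dTAG13 (log2 fold change 0.83 ± 0.17, adjusted p = 0.0393). All 3 rose without overlap, though Sptb shares its span with Plekhg3 on the opposite strand. Tcea3, a transcription elongation factor, stood at 177, 366 and 252 with DMSO and 344, 619 and 419 with dTAG13 (log2 fold change 0.81 ± 0.16, adjusted p = 0.0339), and Cited2, a CBP/p300-binding coregulator, at 591, 456 and 377 with DMSO and 1129, 581 and 589 with dTAG13 (log2 fold change 0.64 ± 0.13, adjusted p = 0.0362). The 2 macroH2A genes, named after their values were seen, were called in opposite directions. H2afy stood at 1664, 1608 and 1515 with DMSO and 2058, 1951 and 2095 with dTAG13 and rose (log2 fold change 0.35 ± 0.06, adjusted p = 0.0182), and H2afy2 stood at 518, 425 and 461 with DMSO and 422, 320.1 and 342 with dTAG13 and fell (log2 fold change -0.38 ± 0.07, adjusted p = 0.0307). Opposite to H2afy2 the annotation places Aifm2, from which its reads cannot be told apart without the strand setting. Sptb lost its call without 7H (adjusted p = 0.0544), without 7H1 (0.12) and without 7H2 (0.128), and Baz1a did so without 7H (adjusted p = 0.169), without 7H1 (0.0708) and without 7H2 (0.126). Cnr1 was no longer called without 7H (adjusted p = 0.274), without 7H1 (0.288) and without 7H2 (0.0863), and Tcea3 did so without 7H (adjusted p = 0.255), without 7H1 (0.153) and without 7H2 (0.185). Cited2 lost its call without 7H (adjusted p = 0.325) and without 7H2 (0.221), and H2afy did so without 7H (adjusted p = 0.094), without 7H1 (0.0635) and without 7H2 (0.227). H2afy2 was no longer called without 7H (adjusted p = 0.107), without 7H1 (0.174) and without 7H2 (0.24).

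The calls not yet described were mostly modest changes of well-measured genes, named here after their values were seen. Among the falls, Chst15, a sulfotransferase of chondroitin sulfate, stood at 797, 890.4 and 868 with DMSO and 436, 607 and 505 with dTAG13, without overlap (log2 fold change -0.73 ± 0.11, adjusted p = 0.00917); its annotated span also covers part of Fgfr2. Sorl1, a sorting receptor of endosomes, stood at 1911, 1416 and 1901 with DMSO and 889, 1061 and 1173 with dTAG13 (log2 fold change -0.74 ± 0.14, adjusted p = 0.0339), and Fjx1, a Golgi kinase related to Drosophila four-jointed, at 928, 996 and 944 with DMSO and 452, 781 and 570.4 with dTAG13 (log2 fold change -0.70 ± 0.13, adjusted p = 0.0327). Impdh1, an enzyme of guanine nucleotide synthesis, had a log2 fold change of -0.47, Rps6ka2, an ERK-activated ribosomal S6 kinase, of -0.43 and Cd40, a TNF receptor family member, of -0.54. Hsd11b2, which inactivates glucocorticoids, fell by 0.91 on the log2 scale and Foxq1, a forkhead factor that overlaps an annotated gene on the opposite strand, by 0.60. Emc8 and Wsb2 also overlap genes on the opposite strand, Cox4i1 and Rfc5. Klhl21, Proser1, Emc8, Stx3, Cotl1, Sh3bp4, Bcar3 and Rbpms had log2 fold changes between -0.56 and -0.35. Among the rises, Dapk1, Msl1, Rbms1 and Wsb2 had log2 fold changes between 0.40 and 0.48. Few of these calls held without 1 of the lines. Without 7H the call ended for all of these genes, with adjusted p from 0.0561 to 0.307. Without 7H1 the call ended for each of them but Chst15, Sorl1, Fjx1 and Proser1, with adjusted p from 0.0626 to 0.205. Without 7H2 the call ended for all of these genes, with adjusted p from 0.106 to 0.393.

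**Figure D3:**
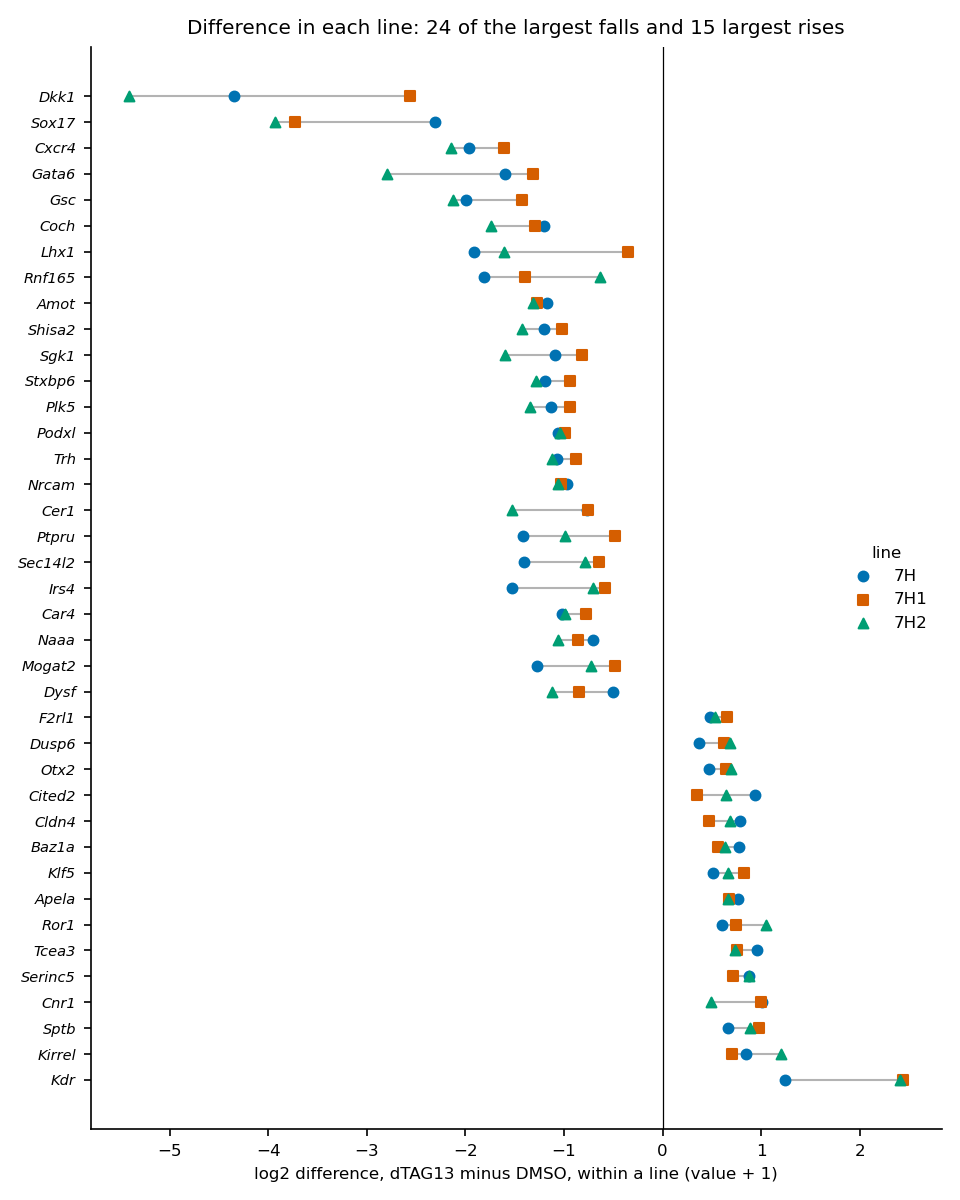
Log2 difference between the dTAG13 and DMSO library of each line (x axis) for 24 of the largest falls and the 15 largest rises with a mean of at least 50 normalised counts, 1 gene per row and 1 symbol per line. The grey bar spans the 3 lines: it is short for Nrcam and Podxl and long for Dkk1, Sox17 and Lhx1, and no symbol crosses 0.

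The size of the differences varied between the 3 lines. Over the 63 falls the median log2 difference was -1.06 in 7H, -0.75 in 7H1 and -1.04 in 7H2, and 7H1 had the smallest shift of the 3 lines for 35 of them. Over the 23 rises the medians were 0.56, 0.64 and 0.66, and 7H had the smallest shift for 11. When the EPI pair of 7H was left out 18 of the falls and 7 of the rises kept their call. Without that of 7H1 the counts were 36 and 6, and without that of 7H2 they were 20 and 3. Besides Dkk1, the widest ranges over lines were those of Sfrp5 (from -3.74 in 7H to -1.05 in 7H1), Psd4 (from -3.23 in 7H to -1.13 in 7H1) and Fam46c (from -3.32 in 7H to -1.30 in 7H2). The steepest differences of these genes rest on dTAG13 values of few reads. Dkk1 stood at 2.95 in 7H2, and in 7H Sfrp5 stood at 0, Psd4 at 1.42 and Fam46c at 4.11. Such ranges are therefore imprecise. The direct differences between lines have 1 pair per line and were not tested.

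Several gene lists gave 0 calls by limma. At an unadjusted p under 0.05 stood 1 of 33 cell cycle genes (median -0.03), 3 of 26 p53 targets and apoptosis genes (median 0.05) and 3 of 26 genes of the unfolded protein and integrated stress response (median -0.04). The same held for 4 of 17 retinoic acid pathway genes (median -0.08), 3 of 16 trophoblast genes (median -0.16), 2 of 9 primordial germ cell genes (median 0.03), 1 of 14 fibroblast genes (median -0.17) and 5 of 23 imprinted genes (median -0.02). Over all tested genes 1237 of 15037 did. Of 30 glycolysis and hypoxia genes 1 fell, Slc16a3, a lactate exporter, at 8680.1, 9866 and 9005 with DMSO and 6146, 6906 and 6794 with dTAG13 (log2 fold change -0.47 ± 0.09, adjusted p = 0.0339). Of these 30 genes 18 were lower in all 3 lines and 0 higher, against 19.3% and 16.5% of all tested genes, with a median of -0.20. Ldha, the lactate dehydrogenase gene, was at 82230.0, 87689 and 88973 with DMSO and 64947, 71840.0 and 69522 with dTAG13, without overlap and not called (log2 fold change -0.33 ± 0.08, adjusted p = 0.128). Among 22 immediate early genes Jun rose, at 1402, 709 and 827 with DMSO and 1766, 945 and 1085 with dTAG13 (log2 fold change 0.38 ± 0.08, adjusted p = 0.045). In that list 10 were higher and 4 lower in all 3 lines, against 16.5% and 19.3% of all tested genes. The list with the most calls was that of anterior endoderm and anterior visceral endoderm, 9 falls and 1 rise among 22, with a median of -0.60. The lists were chosen with earlier results of these data known, so their counts and medians are description and not support. The extraembryonic endoderm list, with 3 falls among 23, shares Sox17 and Gata6 with the definitive endoderm list. Among 20 OTX and homeobox relatives 4 fell, among them Gsc, Lhx1 and Isl1, and 1, Otx2, rose. Of 23 primitive streak genes and 18 axial mesendoderm and node genes the called ones, Gsc and Lhx1 with Sfrp5 in the second, are described above (medians -0.13 and -0.00). Slc16a3 lost its call without 7H (adjusted p = 0.237), without 7H1 (0.205) and without 7H2 (0.177), and Jun did so without 7H (adjusted p = 0.202), without 7H1 (0.262) and without 7H2 (0.278).

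**Figure D4:**
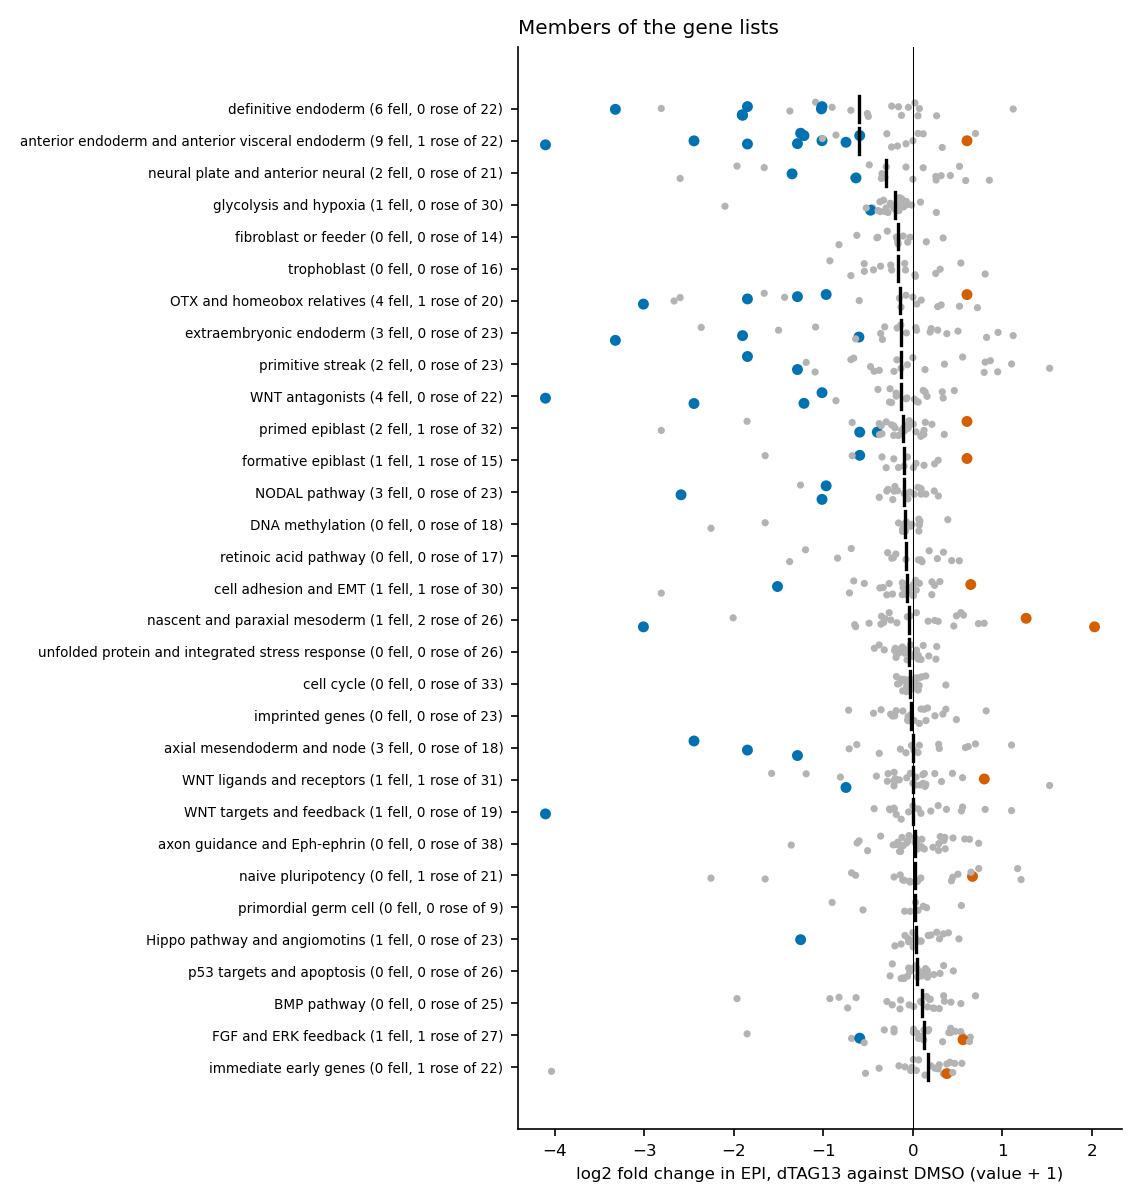
Log2 fold change in EPI of every tested member of the 31 gene lists, 1 list per row, ordered by median (black tick). Blue points fell, orange points rose and grey points were not called. The definitive endoderm and anterior endoderm lists stand at the top with medians of -0.60, and most other medians lie near 0. The lists were chosen with earlier results of these data known.

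At later stages, in libraries separate from the EPI ones, depletion changed 362 genes at PS (2.41%), 2376 at DE1 (15.8%) and 4139 at DE2 (27.5%), and many of the EPI falls fell there too. The 4 stages share 1 estimate of spread per gene, so a gene with little spread is called more readily at each of them, and the shares of all tested genes given beside the overlaps do not allow for this. Of the 63 falls 25 (39.7%) also fell at PS, where 1.08% of all tested genes fell. At DE1 37 of them (58.7%) fell, against 7.71% of all genes, and at DE2 35 (55.6%), against 13.4%. Read the other way, these shared genes made up 15.4% of the PS falls, 3.19% of the DE1 falls and 1.73% of the DE2 falls. Of the 23 rises 9 (39.1%) rose at PS, 10 (43.5%) at DE1 and 8 (34.8%) at DE2, where 1.33%, 8.09% and 14.1% of all genes rose. The genes that fell at all 4 stages were Sox17, Cxcr4, Gata6, Gsc, Pcdh8, Lhx1, Amot, Shisa2, Car4, Hsd11b2, Fzd5, Irx3, Fgf5 and Gpc4, and those that rose at all 4 were Wsb2 and Cldn4. In vehicle cells 29 of the 63 falls had their highest mean at DE2 and 23 at DE1, while 8 were highest in EPI. That is 46%, 36.5% and 12.7%, against 31%, 20.3% and 25.9% of all tested genes.

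Some genes were called in the opposite direction later. No EPI fall was called a rise at PS, 7 were at DE1 and 8 at DE2, and of the 23 rises 1, 4 and 7 were called falls at PS, DE1 and DE2. The difference between the effects was itself tested: the EPI effect differed from the PS effect for 39 of all tested genes (0.259%), from the DE1 effect for 936 (6.22%) and from the DE2 effect for 2120 (14.1%). Among the called genes the difference from PS was called for 6 falls and 7 rises. That from DE1 was called for 30 falls and 11 rises, against 6.22% of all tested genes (EPI effect lower 3.17%, higher 3.06%). That from DE2 was called for 39 falls and 14 rises, against 14.1% of all tested genes (EPI effect lower 7.36%, higher 6.74%). Each count of falls or rises takes differences of either sign. The called genes were chosen by the same EPI values that enter these differences, so a higher share among them is built in. No conclusion is drawn from comparing these counts with the shares. Sgk1 fell in EPI but rose at DE2 (log2 fold change 0.76 ± 0.12, adjusted p = 0.000293), and the EPI effect differed from the PS effect (-1.23 ± 0.16, adjusted p = 0.00762) and from the DE2 effect (-1.93 ± 0.16, adjusted p = 8.53e-06). Plk5 rose at DE1 (log2 fold change 0.46 ± 0.14, adjusted p = 0.0389) and DE2 (log2 fold change 1.36 ± 0.14, adjusted p = 9.63e-06). Mycn rose at DE1 (log2 fold change 0.83 ± 0.12, adjusted p = 0.000226) and DE2 (log2 fold change 0.66 ± 0.12, adjusted p = 0.000799). F2rl1 and Klf5, which rose in EPI and at PS, fell at DE1 (log2 fold change -0.43 ± 0.07, adjusted p = 0.000868 and log2 fold change -0.95 ± 0.12, adjusted p = 9.47e-05). Dusp6 (log2 fold change -0.85 ± 0.09, adjusted p = 9.68e-06) and Apela (log2 fold change -1.74 ± 0.14, adjusted p = 8.05e-07) fell at DE2. Fzd5 fell further at DE1 than in EPI (log2 fold change -2.86 ± 0.11, adjusted p = 8.18e-09; difference 2.11 ± 0.16, adjusted p = 6.11e-06), and Sec14l2 far further at DE2 (log2 fold change -5.08 ± 0.19, adjusted p = 9.73e-10; difference 4.13 ± 0.26, adjusted p = 6.06e-07). Kdr and Dll1, up in EPI, were not called at PS, and both effects differed from that at PS (2.96 ± 0.44, adjusted p = 0.0163 and 2.13 ± 0.33, adjusted p = 0.0228). Called at no other stage were Psd4, Ptpru, Mycl, Proser1, Emc8 and Rbpms among the falls, and H2afy, Msl1 and Dll1 among the rises.

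**Figure D5:**
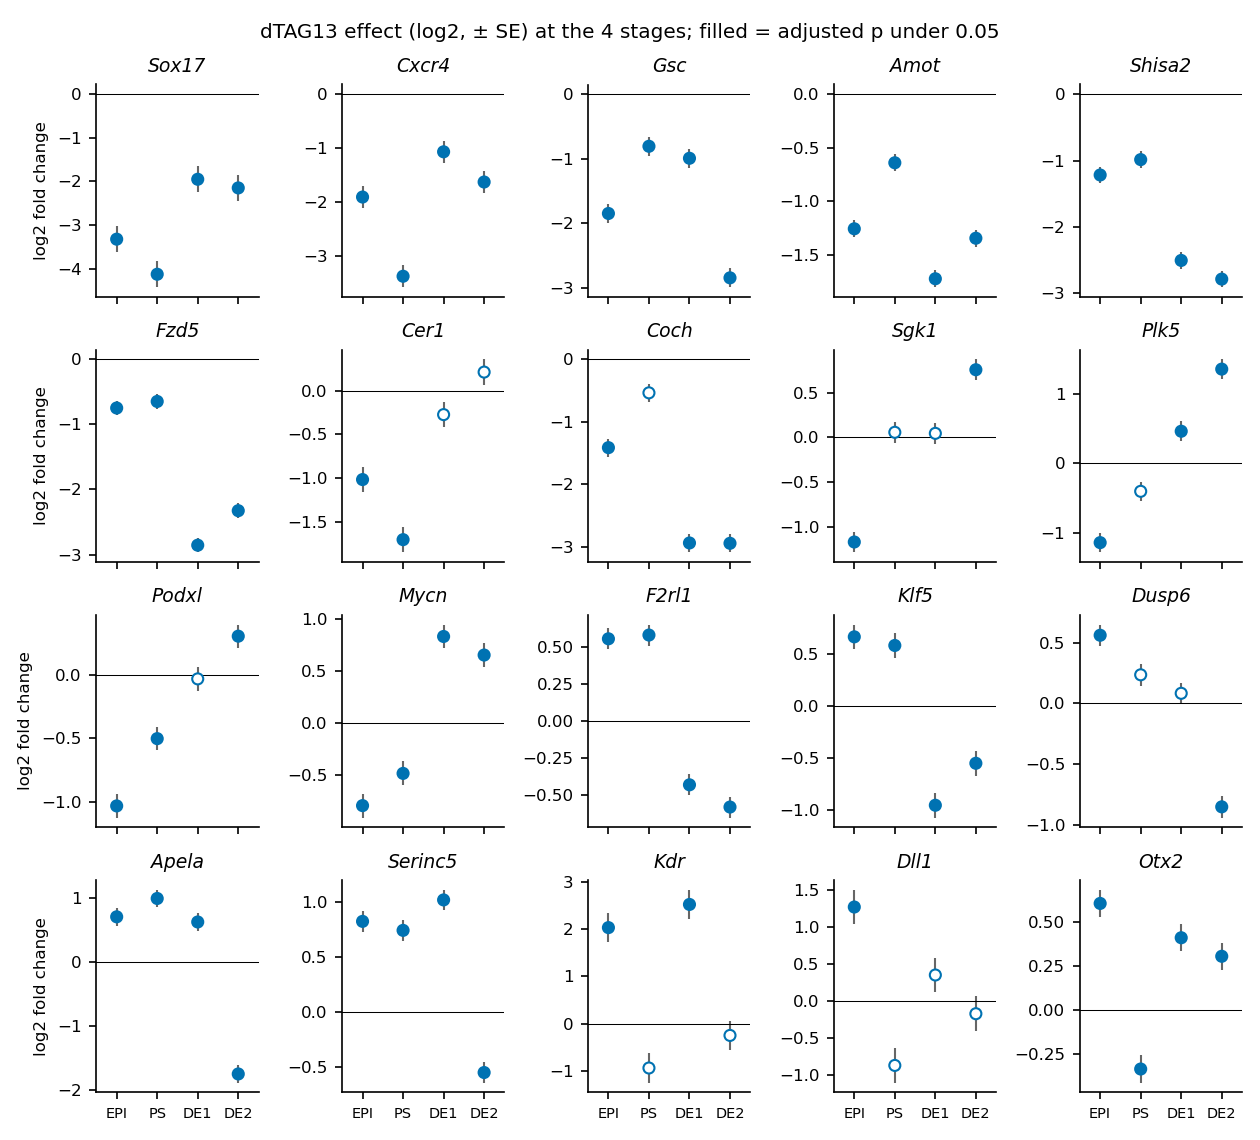
Log2 fold change, dTAG13 against DMSO, with its standard error at EPI, PS, DE1 and DE2 for 20 genes called in EPI. Filled points had an adjusted p under 0.05. The top row shows genes that fell at every stage. Sgk1, Plk5, Podxl, Mycn, F2rl1, Klf5, Dusp6, Apela, Serinc5 and Otx2 were called in opposite directions at different stages. Each panel has its own y axis.

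The promoters of the called genes were searched on both strands for TAATCC, the sequence bound by homeodomains of the OTX and bicoid class, or GGATTA, its reverse complement. Windows of 300 bases, from 250 before to 50 after an annotated start, came from RefSeq (GRCm38.p6) and were found for 46 of the 63 falls and 18 of the 23 rises. The motif was present in 5 of the 46 (10.9%) and 3 of the 18 (16.7%), and in 779 of 11254 tested genes with a window (6.92%). The falls that hold it are Sgk1, Naaa, Isl1, Bcar3 and Stx3, and the rises are Otx2, Msl1 and Cnr1. The upstream 250 bases are shown for Sgk1, Naaa and Isl1. Of the falls with a match upstream of the start, which Stx3 lacks, these 3 had the smallest adjusted p. For Sgk1 the window is the first along the chromosome among those that hold the motif, and it lies inside the annotated span of the gene. A further Sgk1 window with a match, 225 bases upstream of its start (chr10:21993640-21993889), is not shown. Otx2 was added after its values were seen because it is the depleted factor's own gene. Each sequence runs 5′ to 3′ on the strand of its gene in lower case, with the motif in capitals.
Sgk1 (GRCm38.p6, chr10:21985854-21986103, plus strand): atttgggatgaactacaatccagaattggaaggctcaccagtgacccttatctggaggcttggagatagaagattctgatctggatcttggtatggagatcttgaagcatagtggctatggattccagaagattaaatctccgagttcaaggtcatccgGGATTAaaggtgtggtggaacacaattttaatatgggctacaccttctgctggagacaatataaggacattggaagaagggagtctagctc
Naaa (GRCm38.p6, chr5:92278182-92278431, minus strand): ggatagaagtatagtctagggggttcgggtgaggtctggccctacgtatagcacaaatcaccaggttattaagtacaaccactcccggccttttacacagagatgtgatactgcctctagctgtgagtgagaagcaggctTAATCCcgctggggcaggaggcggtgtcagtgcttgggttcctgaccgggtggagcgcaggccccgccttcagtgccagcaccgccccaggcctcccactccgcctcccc
Isl1 (GRCm38.p6, chr13:116309689-116309938, minus strand): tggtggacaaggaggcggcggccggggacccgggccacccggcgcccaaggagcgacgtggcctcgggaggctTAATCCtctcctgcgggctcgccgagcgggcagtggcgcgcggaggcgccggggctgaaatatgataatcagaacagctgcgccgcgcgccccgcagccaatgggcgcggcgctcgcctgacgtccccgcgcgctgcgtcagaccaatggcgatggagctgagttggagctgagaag
Otx2 (GRCm38.p6, chr14:48665110-48665359, minus strand): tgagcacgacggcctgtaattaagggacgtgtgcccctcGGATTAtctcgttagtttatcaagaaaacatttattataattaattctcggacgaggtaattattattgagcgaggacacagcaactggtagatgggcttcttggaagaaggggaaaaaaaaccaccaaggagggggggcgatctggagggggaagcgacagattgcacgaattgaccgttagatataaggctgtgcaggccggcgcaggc
In the windows shown, the match lies 91 bases upstream of the start in Sgk1, 110 in Naaa, 177 in Isl1 and 211 in Otx2. A match of these letters is a description and was not tested for binding, and a window without them says nothing about OTX2 at that gene.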

How the data were processed

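PolyA RNA-seq libraries of 24 samples (4 stages, 2 treatments, 3 lines) were deposited by the authors as 1 table of normalised counts. Per the submitters' processing notes the tool was DESeq2 and the build mm10. For the aligner, strand setting and filters, nothing is given in the sources used here. Of the 86 called genes 34 overlap an annotated gene on the opposite strand, and for 7 such a gene is in the deposited table. The deposited signal is a count scaled between libraries and is not whole, so no count model was run, and depth was estimated from the spacing of low values (57.83 to 71.44% of them within 0.1 of whole reads in EPI). Genes with at least 10 normalised counts in at least 3 libraries were tested on log2(value + 1).

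The test was limma 3.58.1 in R 4.3.3, two-sided, with variance trend and robust empirical Bayes, and was tested on simulated data. All 24 libraries entered, with each line within each stage as a block and 1 dTAG13 effect per stage (8 residual degrees of freedom), so EPI borrows its spread from the other stages. Pairing comes from the line names in the labels. Deviations of paired EPI libraries correlated at 0.23, 0.38 and 0.19, those of unpaired ones at -0.27 to 0.05. Coordinates are GENCODE M21 (mm10), which held 18116 of the IDs. Names written as dates were restored for 23 genes.

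Named were Otx2; the 25 largest falls and 15 largest rises with a mean over EPI of 50 or more; called members and the 4 smallest p of each list; the 6 clearest differences from each stage; and the 4 widest ranges over lines. The genes and lists were chosen with earlier results of these data known. The alternatives tried were the block, the spread estimate, pseudocount, filter, scaling and leaving out the EPI pair of a line. A gene that meets these rules is not reported here.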

Additional observations from a re-analysis of the deposited data

Results flagged for a closer look

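These differences between the dTAG13 effect in EPI and the effect at another stage, on the log2 scale, each passed an adjusted p under 0.05 by limma with Benjamini-Hochberg adjustment in a test of the difference itself. They are the genes called in opposite directions and the named genes that had one of the 6 smallest adjusted p for a stage. The EPI effect minus the PS effect was -1.23 for Sgk1, -1.44 for Dysf, 0.66 for Rbms1, 0.94 for Otx2, 2.13 for Dll1 and 2.96 for Kdr. Against DE1 the difference was -1.60 for Plk5, -1.31 for Mogat2, -1.62 for Mycn, -3.29 for Nxph4, -1.29 for Sorl1, -1.14 for Cd40, 2.11 for Fzd5, -1.04 for Bcar3, 0.65 for Jun, 0.99 for F2rl1, 1.08 for Cited2 and 1.62 for Klf5. Against DE2 it was -1.93 for Sgk1, -2.50 for Plk5, -1.33 for Podxl, -1.75 for Irs4, -1.83 for Mogat2, -1.45 for Mycn, -1.39 for Cd40 and -0.98 for Foxq1. On the positive side against DE2 it was 4.13 for Sec14l2, 1.14 for F2rl1, 1.41 for Dusp6, 1.22 for Klf5, 2.45 for Apela, 1.20 for Ror1, 1.54 for Tcea3 and 1.37 for Serinc5. A negative difference means a lower log2 fold change in EPI than at the other stage.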

How the results depend on the processing

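The EPI calls were 86 genes, 63 falls and 23 rises. Without the replicate block, that is with the pairing ignored, they were 13, 13 and 0 (534 genes at an unadjusted p under 0.05), with line as a random effect 52, 45 and 7 (35 of the 63 falls and 5 of the 23 rises kept), and with the EPI libraries alone 40, 17 and 23 (8 and 8 kept). Empirical Bayes without trend or robust fitting gave 26, 21 and 5. With the EPI pair of a line left out the calls ranged from 28 to 51, the falls from 25 to 43 and the rises from 3 to 8. The other pseudocounts, filters and scalings gave 81 to 95 calls. No called gene changed sign, which only the scalings could have brought about.

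The EPI effect differed from that at PS for 39 genes, and for 2 without the block, 17 with the random effect and 2 without trend or robust fitting. With the EPI pair of a line left out it did so for 13 to 17. The EPI effect differed from that at DE1 for 936, and for 289 without the block and 502 to 594 with such a pair left out. Against DE2 these counts were 2120, 949 and 1328 to 1444. Called at PS, DE1 and DE2 were 362, 2376 and 4139 genes, and 33, 1167 and 2551 without the block (166 at PS without trend or robust fitting). The cause of these shifts was not tested, but leaving out an EPI pair also leaves fewer samples. The step of about 1 to 1.5 normalised counts per read limits the precision of genes near 10.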
